A study of Mus musculus with 6 samples.

Results

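Acute phase proteins are secreted proteins whose output rises in infection and tissue injury. Here 8 of their genes were followed in mouse fibroblast lines. They are the serum amyloid A genes Saa3, Saa1 and Saa2, haptoglobin (Hp), lipocalin 2 (Lcn2), ceruloplasmin (Cp), complement component C3 and orosomucoid 1 (Orm1). Saa3 and Hp were chosen by their measured fall in LT7 against GFP, so their values in LT7 and ST7 are given as a description with no p-value. The other 6 were picked because they belong to the same known response, with earlier results of these data known. The 8 genes were measured by 11 of the 61307 probes and make up 8 of the 50090 gene names on the array. Each was matched by its gene name on the array.

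All cells came from NIH3T3, a mouse fibroblast line. GFP cells carried a retroviral GFP and served as control. LT7 cells (long cells) and ST7 cells (small cells) carried a retroviral SIRT7GFP, in which SIRT7, an NAD-dependent deacetylase of the sirtuin family, is fused to GFP. Both arose in SIRT7GFP cultures that had grown to confluence, where the compact colonies gave ST7 and the long cells around them gave LT7. Each line was taken with cloning cylinders and then grown from single cells, and the GFP cells were also grown from single cell clones, so that a difference between lines cannot be told apart from a difference between clones. Each group had 2 arrays, with RNA from different passages of the same line. The comparisons of LT7 and of ST7 with GFP share the same 2 GFP arrays.

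The acute phase response is best known from hepatocytes, where interleukin 6 acts through STAT3, and interleukin 1 acts through NF-kappaB and C/EBP factors, to raise the secreted proteins. Several of these genes are also used outside the liver. Saa3 and Lcn2 are induced in fibroblasts, adipocytes and macrophages by inflammatory signals, and fibroblasts secrete C3. The proteins carry lipid (serum amyloid A), haemoglobin (haptoglobin), bacterial iron chelators (lipocalin 2) or copper (ceruloplasmin), opsonise microbes (C3) or bind small lipophilic molecules (orosomucoid).

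The probes that the results turn on were 60 bases long, and their sequences are given here in lower case as on the array. Saa1 had 2 probes, and both are shown because they differed widely in signal and in size of change.

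Saa3 probe: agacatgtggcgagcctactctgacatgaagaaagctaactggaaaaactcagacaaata
Hp probe: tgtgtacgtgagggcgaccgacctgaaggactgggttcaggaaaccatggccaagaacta
Saa1 brighter probe: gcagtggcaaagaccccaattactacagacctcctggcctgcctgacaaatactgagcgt
Saa1 dimmer probe: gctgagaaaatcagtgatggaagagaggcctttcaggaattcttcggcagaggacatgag
Lcn2 probe: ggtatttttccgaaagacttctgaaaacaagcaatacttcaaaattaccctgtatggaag

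C/EBP factors are among the known activators of these genes, so the promoters were searched for the C/EBP motif TTNNGCAA on both strands. The RefSeq promoter windows (GRCm38.p6) ran from 250 bases before to 50 bases after the annotated start. They were given for 6 of the 8 genes, in 7 windows, since Cp had 2 starts. Hp and Orm1 had no window. All 6 genes held the motif, in 6 of the 7 windows, against 10.8% of the 32851 windows of all genes. The STAT palindrome TTCNNNGAA was in 0 of the 7 windows, against 8.30% of all, and the NF-kappaB decamer consensus was also in 0 of the 7, against 4.51% of all. These letters say nothing of binding in these cells. Shown are 60 bases around the motif, on the strand of the gene, with the motif in capitals. The regions are chr7:46715742-46715801 (minus strand) for Saa3, chr7:46743129-46743188 (minus) for Saa1, chr7:46751624-46751683 (plus) for Saa2, chr2:32387922-32387981 (minus) for Lcn2, chr17:57228148-57228207 (minus) for C3 and chr3:19957153-19957212 (plus) for Cp, all upstream of the annotated start.

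Saa3 promoter: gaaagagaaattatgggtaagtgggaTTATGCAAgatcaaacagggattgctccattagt
Saa1 promoter: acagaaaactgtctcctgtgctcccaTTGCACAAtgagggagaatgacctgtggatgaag
Saa2 promoter: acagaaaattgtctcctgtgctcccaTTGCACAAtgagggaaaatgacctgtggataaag
Lcn2 promoter: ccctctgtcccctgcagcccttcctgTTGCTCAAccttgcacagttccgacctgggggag
C3 promoter: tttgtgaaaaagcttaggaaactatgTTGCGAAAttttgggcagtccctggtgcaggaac
Cp promoter: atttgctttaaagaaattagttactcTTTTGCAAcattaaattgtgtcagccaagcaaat

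The motif began 99 bases before the start of Saa3, 182 before that of Saa1, 183 before that of Saa2 and 216 before that of Lcn2. It began 45 bases before the start of C3 and 70 before that of Cp. The 250 bases upstream of Saa1 and Saa2 were 94.8% identical, while those of Saa3 were 52.2% identical to Saa1 and 52.4% to Saa2. The motif was held by genes picked for their fall or called lower by limma in LT7 (Saa3, Saa1, Lcn2). It was also held by genes not called there (Saa2, C3, Cp). Saa1 and Saa2 are close copies, and signal on the probes of one may come partly from the other. In GFP the brighter Saa1 probe gave 8968 and 5578, against 23.2 and 12.1 on the dimmer one and 79.8 and 36.8 for Saa2. Which serum amyloid transcripts each probe reads was not tested.

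**Figure D1:**
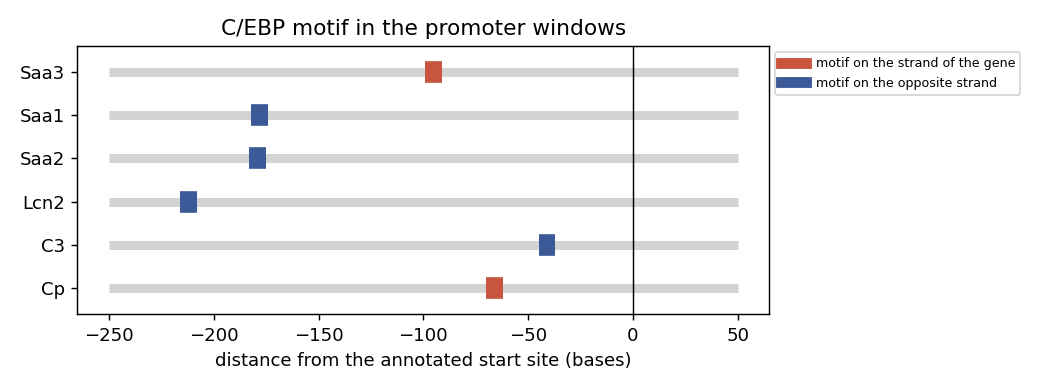
Position of the C/EBP motif (TTNNGCAA, either strand) in the RefSeq promoter windows of the 6 acute phase genes that had one (for Cp, the window that held it). The x axis is the distance in bases from the annotated start, the grey bar is the window from 250 bases before to 50 bases after it, and the coloured block is the motif, red on the strand of the gene and blue on the opposite strand. The motif lay upstream of the start in each, between 45 and 216 bases away.

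The arrays labelled ST7 stood apart from the others. The 75th percentile of the processed signal (the background-subtracted spot intensity) was 317 to 384 on the 4 GFP and LT7 arrays, and 16.3 and 17.1 on the ST7 arrays. Of all probes, 47.5% to 57.5% were marked well above background by the scanner software on the GFP and LT7 arrays, against 25.8% and 26.4% on the ST7 arrays. The brighter Sirt7 probe gave 3125 and 2480 in GFP, 3633 and 2782 in LT7, a log2 difference of 0.29 (SE 0.21, adjusted p = 0.47, limma). On the ST7 arrays it gave 2.85 and 3.28, which is not well above background. Whether the probe reads the SIRT7GFP transcript is not given in the sources used here, so the Sirt7 signal does not settle the label of either line, and directions are given for the arrays labelled ST7. By immunoblot the paper found SIRT7GFP protein in both lines, at levels that did not differ significantly. All 12 listed fibroblast markers (Col1a1, Vim, Thy1 and others) were well above background on both arrays of GFP and of LT7, but 4 of 12 were so on both ST7 arrays, where their summed signal was 15069 to 16608 against 400326 to 437966 on the other arrays. LT7 replicate 1 was alone in the second of the 2 scans, so its values are also given apart. All values below rest on RNA of whole cultures, in which fewer expressing cells and less RNA per cell cannot be told apart.

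In GFP cells the serum amyloid, haptoglobin, ceruloplasmin and C3 genes were all measured, with 9 of the 11 probes well above background on both arrays. Saa3 gave a signal of 24372 and 13994, Hp 1745 and 1039, and the brighter Saa1 probe 8968 and 5578. C3 gave 75592, which was saturated, and 58215. Orm1 was not well above background on any of the 6 arrays. All 11 probes were brighter on GFP replicate 1 than on replicate 2 after scaling, which held for 34.9% of all probes. Their signals were 1.30 to 2.29 times as high on replicate 1, while the 75th percentile was 1.19 times as high. Every change given here rests on the mean of these 2 arrays.

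In LT7 cells, 6 of the 8 acute phase genes were lower than in GFP cells on their brightest probe, by log2 differences of -1.07 to -7.57 after each array was scaled to its 75th percentile. Of the 6 genes not picked for their fall, limma called 2 lower (Saa1 and Lcn2) and 0 higher at an adjusted p under 0.05, while it called 0.132% of all probes lower and 0.0440% higher. The median log2 difference of the 8 genes was -3.23, against 0.17 for all probes. On 8 of the 11 probes both LT7 arrays lay below both GFP arrays, which was so for 15.0% of all probes, and before scaling on the same number, against 20.8% of all probes. By the fold rule (a log2 ratio of -0.8 or lower in both replicates and below -1 in their mean) 5 of the 8 genes were down, against 3.02% of all probes. The choice of Saa3 and Hp fixes part of these counts, and the other 6 were chosen with earlier results of these data known. No probe of the 8 genes lay above on both arrays (38.0% of all probes did), and 3 overlapped. These shares of all probes include probes near background in both groups. With a filter on dim probes the median of all probes was -0.02, against -3.47 for the acute phase genes (without Orm1).

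**Figure D2:**
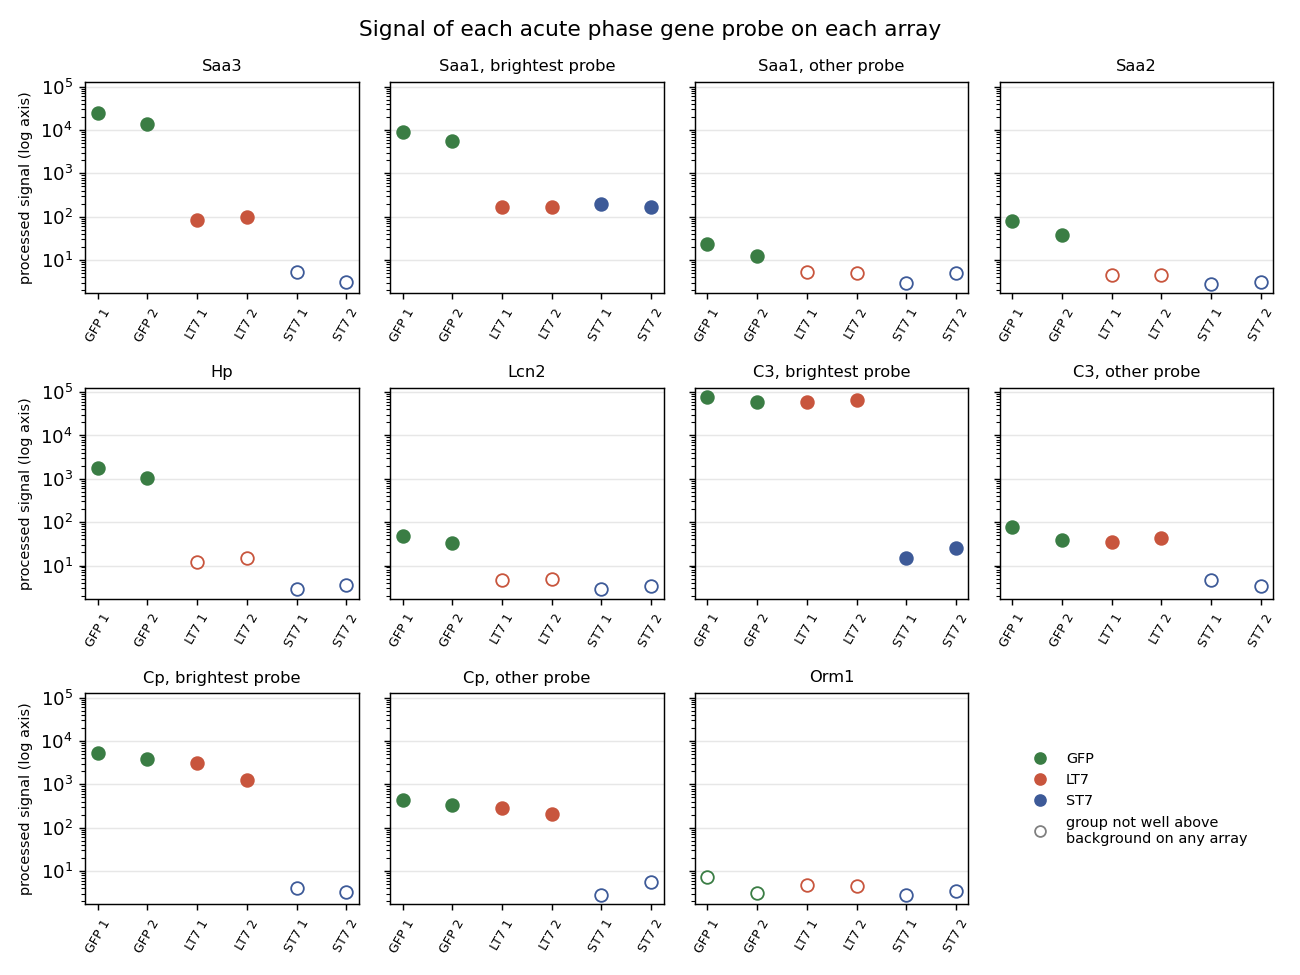
Processed signal of each acute phase gene probe on each of the 6 arrays, on a log axis. Each panel is 1 probe and each point 1 array, with open points where no array of that group was well above background. GFP points lie far above LT7 points for Saa3, Saa1 (brighter probe), Saa2, Hp and Lcn2, and at a similar height for C3, whose GFP replicate 1 value was saturated.

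The serum amyloid A genes were all lower in LT7 than in GFP, and limma called Saa1. Saa3, an apolipoprotein made mainly outside the liver, gave 82.2 and 99.6 in LT7 against 24372 and 13994 in GFP. Both LT7 values were well above background and far below the lower GFP value. The means were 19183 ± 7338 (SD, n = 2) in GFP and 90.9 ± 12.3 in LT7. After scaling, the log2 difference was -7.57 (SE 0.37), or 191-fold. It was -7.76 with LT7 replicate 1 alone and -7.38 with replicate 2 alone.

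Saa1, a main serum amyloid of the mouse liver, gave 164 and 171 in LT7 on its brighter probe, against 8968 and 5578 in GFP. The groups did not overlap, and all 4 values were well above background. The log2 difference was -5.30 (SE 0.26, adjusted p = 0.016, limma), or 39.5-fold. The call was lost without GFP replicate 1 (-5.08, adjusted p = 0.27) and without GFP replicate 2 (-5.52, adjusted p = 0.13), and held without LT7 replicate 1 (-5.22, adjusted p = 0.026). Over all alternatives in processing its adjusted p ran from 0.0013 to 0.27. The dimmer Saa1 probe gave 23.2 and 12.1 in GFP and 5.18 and 5.02 in LT7, and was well above background on 1 array. It lay in the same order but did not pass the test (log2 difference -1.62, SE 0.35, adjusted p = 0.10, limma).

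Saa2, the neighbouring copy of Saa1, gave 79.8 and 36.8 in GFP and 4.61 and 4.54 in LT7, where it was not well above background. The groups did not overlap, and GFP was at least 2.40-fold higher. The log2 difference of -3.47 (SE 0.33) had an adjusted p = 0.052 by limma, and from 0.021 to 0.50 over the alternatives.

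Haptoglobin and lipocalin 2 act on haem and iron. Hp, which binds free haemoglobin, gave 1745 and 1039 in GFP (mean 1392 ± 499, SD, n = 2) and 11.8 and 15.0 in LT7, where neither value was well above background. The log2 difference was -6.56 (SE 0.28), and GFP was at least 59.6-fold higher. With LT7 replicate 1 alone the difference was -6.79 and with replicate 2 alone -6.34.

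Lcn2, which binds the siderophores of bacteria, gave 48.7 and 33.4 in GFP and 4.52 and 4.92 in LT7, again not well above background. The groups did not overlap. Lcn2 fell, with a log2 difference of -3.00 (SE 0.22, adjusted p = 0.036, limma), at least 1.79-fold. This call was the less firm of the 2. It was lost without either GFP array (adjusted p = 0.27 without replicate 1 and 0.13 without replicate 2), without LT7 replicate 1 (0.050), and without either ST7 array (0.089), which entered only through the shared spread. Over the alternatives its adjusted p ran from 0.014 to 0.50.

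Cp, the copper-carrying ferroxidase of plasma, gave 5250 and 3794 in GFP and 3095 and 1271 in LT7 on its brighter probe. Both LT7 arrays lay below both GFP arrays, but they differed from each other more than the GFP arrays did. The log2 difference of -1.07 (SE 0.43) did not pass the test (adjusted p = 0.19, limma), and it was -0.48 with LT7 replicate 1 alone and -1.66 with replicate 2 alone. The other Cp probe gave 447 and 342 in GFP and 288 and 207 in LT7, a log2 difference of -0.58 (SE 0.35, adjusted p = 0.39).

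C3, the central complement protein, kept a high signal in LT7. Its brighter probe gave 59475 and 64653 in LT7 against 75592 and 58215 in GFP, so the groups overlapped. The log2 difference was 0.0011 (SE 0.31, adjusted p = 0.999, limma), with a saturated value on GFP replicate 1. The other C3 probe was far from saturation, with 76.4 and 39.2 in GFP and 35.8 and 44.3 in LT7, and its groups overlapped as well (log2 difference -0.36, SE 0.37, adjusted p = 0.62). A lack of a call with 2 arrays a group does not show that C3 was equal.

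Orm1, an acute phase lipocalin of plasma, gave 7.22 and 3.15 in GFP and 4.86 and 4.45 in LT7, and no fold can be given because no array was well above background.

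**Figure D3:**
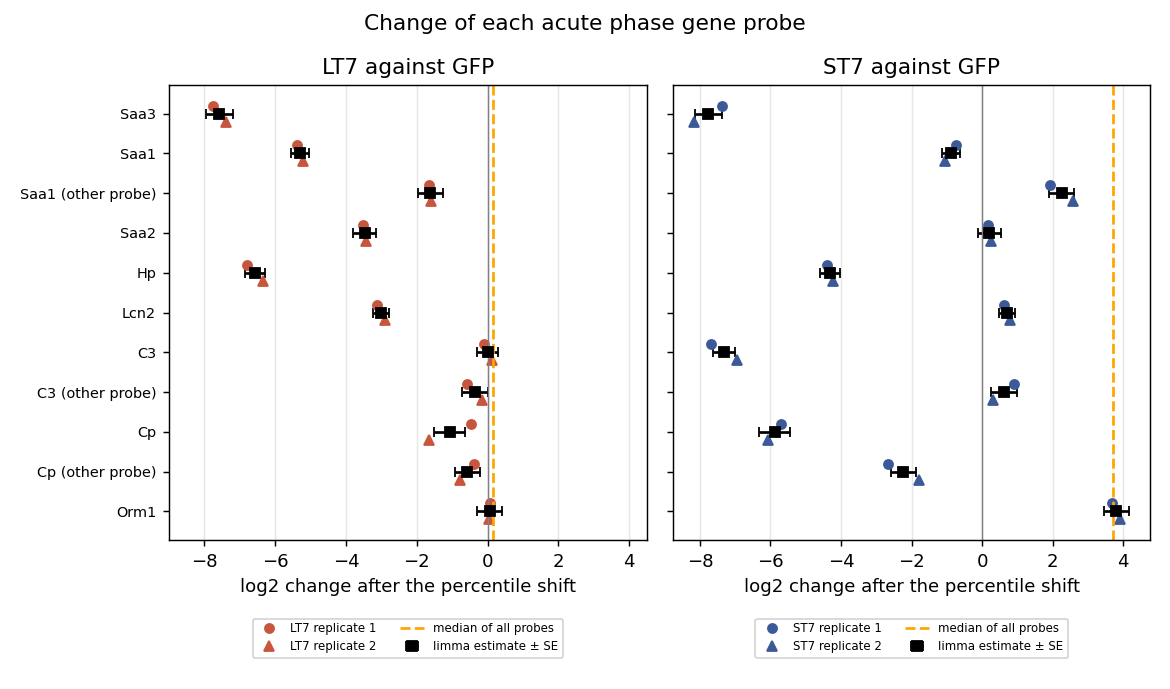
Log2 change of each acute phase gene probe in LT7 (left) and on the arrays labelled ST7 (right) against the mean of the 2 GFP arrays, after scaling each array to its 75th percentile. Coloured points are single arrays, black squares with bars are limma's estimate ± SE, and the dashed line is the median of all probes (0.17 in LT7, 3.72 in ST7). In LT7 the probes range from Saa3 at -7.57 to Orm1 at 0.06, whereas in ST7 the zero line lies far below the median of all probes.

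On the arrays labelled ST7, 1 of the 11 probes (the brighter Saa1 probe) was well above background on both arrays, and 9 were well above background on neither. Before scaling, both ST7 arrays lay below both GFP arrays on 10 of the 11 probes, against 51.2% of all probes. After scaling this held for 6, against 22.0% of all probes, while 3 lay above both GFP arrays, against 74.0% of all probes. By the fold rule 4 of the 8 genes were down, against 19.1% of all probes. Limma called 3 of the 6 other genes lower (Saa1, C3 and Cp) and 2 higher (Lcn2 and Orm1), while it called 19.8% of all probes lower and 70.7% higher. The median log2 difference of the 8 genes was -2.61, against 3.72 for all probes. All probes here include those near background on the ST7 arrays. With a filter on dim probes their median was 0.72, against -4.32 for the acute phase genes (without Orm1). With no scaling it was -0.68, against -7.00.

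Saa3 gave 5.19 and 3.14 on the ST7 arrays, not well above background. The log2 difference from GFP was -7.76 (SE 0.37), and GFP was at least 64.9-fold higher. Hp gave 2.94 and 3.48, also not well above background, a log2 difference of -4.32 (SE 0.28) with GFP at least 4.73-fold higher. Both genes thus lay below GFP in LT7 and on the ST7 arrays, in comparisons that share the GFP arrays.

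The brighter Saa1 probe also lost signal against the 8968 and 5578 of GFP. Alone among the acute phase probes, it was still detected on each ST7 array. It gave 197 and 165 on the ST7 arrays, close to the 164 and 171 of LT7, although the 75th percentile of the ST7 arrays was far lower. After scaling, its log2 difference from GFP was -0.89 in ST7 (SE 0.26, adjusted p = 0.019, limma), or 1.86-fold, against -5.30 in LT7. Without scaling it was -5.29 in ST7. The dimmer Saa1 probe, which neither ST7 array measured well above background, was called in the opposite direction after scaling (2.26, SE 0.35, adjusted p = 0.0016) and gave -2.14 with no scaling. The ST7 call was lost without GFP replicate 1 (-0.67, adjusted p = 0.075) and without ST7 replicate 2 (-0.73, adjusted p = 0.10).

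C3 gave 14.8 and 26.0 on its brighter probe, with 1 ST7 array well above background, against 58215 or more in GFP. On this probe it fell, with a log2 difference of -7.32 (SE 0.31, adjusted p = 1.7e-05, limma), or 160-fold by the values as measured, of which GFP replicate 1 was saturated and 1 ST7 array was not well above background. The dimmer C3 probe, which neither ST7 array measured well above background, gave 0.61 after scaling (SE 0.37, adjusted p = 0.16) and -3.79 with no scaling. Cp gave 3.96 and 3.26 on its brighter probe and fell, with a log2 difference of -5.88 (SE 0.43, adjusted p = 7e-05), at least 15.7-fold. The other Cp probe gave a log2 difference of -2.24 (SE 0.35, adjusted p = 0.0017), at least 1.37-fold. C3 and Cp were called lower on the ST7 arrays and not in LT7, and the difference between the lines was not tested.

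Saa2 (2.83 and 3.12), Lcn2 (2.88 and 3.37) and Orm1 (2.84 and 3.52) were not well above background on the ST7 arrays. Their log2 differences from GFP after scaling were 0.21 (adjusted p = 0.56), 0.70 (adjusted p = 0.027) and 3.80 (adjusted p = 0.00019), respectively, by limma. The ST7 signals of Saa2 and Lcn2 before scaling were all below those of GFP, so the sign of these values came from the percentile that was subtracted. With no scaling they were -4.19 for Saa2, -3.70 for Lcn2 and -0.59 for Orm1.

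**Figure D4:**
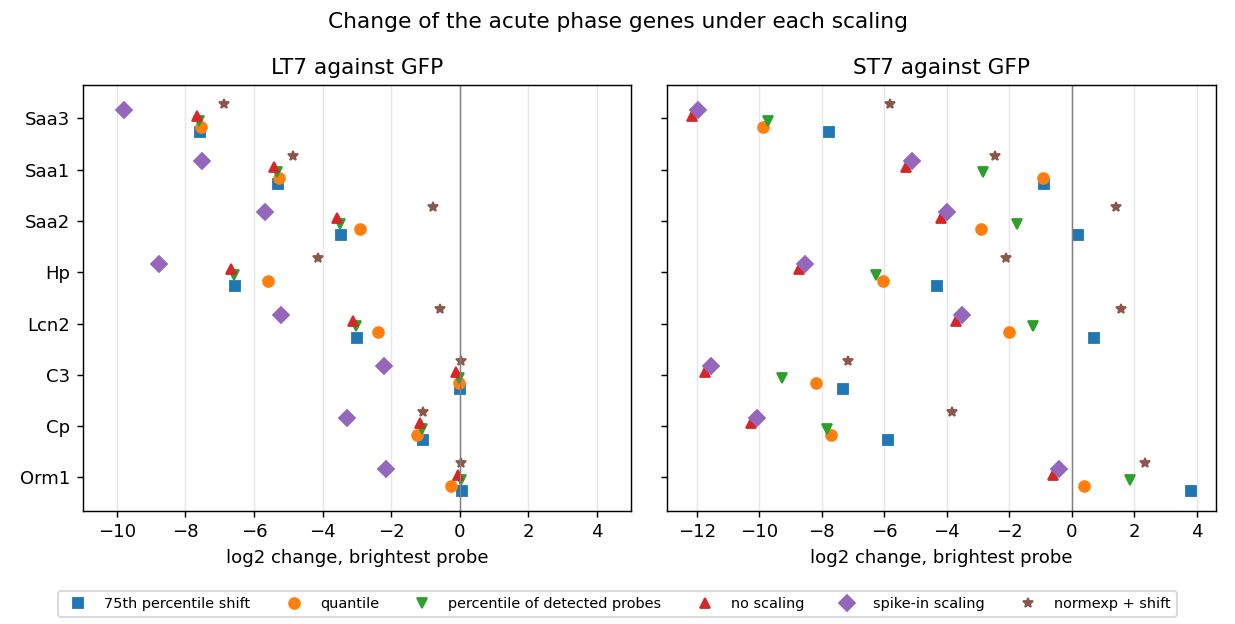
Log2 change of the brightest probe of each acute phase gene in LT7 (left) and on the arrays labelled ST7 (right) against GFP under 6 ways of scaling the arrays, 1 symbol for each. In LT7 the symbols of Saa3, Saa1, Saa2, Hp and Lcn2 stay below 0 throughout. In ST7 Saa3, Saa1, Hp, C3 and Cp stay below 0 and Saa2, Lcn2 and Orm1 lie on both sides of it.

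The plot of the scalings shows which values rest on the choice of scale. In LT7 the difference of Saa3 ran from -9.79 with spike-in scaling to -6.86 with normexp background correction, and that of the brighter Saa1 probe from -7.52 to -4.88. Normexp adds an offset of 50 before the logarithm and so compresses dim probes. With it the differences were -4.13 for Hp, -0.76 for Saa2 (adjusted p = 0.14) and -0.58 for Lcn2 (adjusted p = 0.090, limma). The call of Saa1 held with normexp (adjusted p = 0.0013) and was lost with quantile normalization (adjusted p = 0.11) and with spike-in scaling (adjusted p = 0.19). C3 and Orm1 in LT7 stayed within 0.3 of 0 on the log2 scale except with spike-in scaling, which gave -2.22 and -2.15 and moved the median of all probes to -2.05.

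The genes most like Saa3 and Hp across the arrays were looked for among 25260 genes that were well above background on both GFP arrays. Likeness was the Euclidean distance over the 6 arrays of the log2 values minus the GFP mean. Saa3 and Hp were chosen by part of these values, and the candidates had to be measured in GFP, so the list is a description. The gene closest to Saa3 was Hp (distance 5.12). It was followed by Grem1, a secreted antagonist of bone morphogenetic proteins (6.48), Enpp2, which encodes the phospholipase autotaxin (6.93), Prelp, a matrix proteoglycan (7.78), and Agt, angiotensinogen (8.00). Those closest to Hp were Vip, a neuropeptide (3.10), Fam5c (3.14), Grem1 (3.34), Agt (3.79) and Akr1c18, a steroid-reducing enzyme (4.21). Agt, itself a liver-secreted plasma protein, gave 709 and 498 in GFP and 51.9 and 13.6 in LT7, a log2 difference of -4.39. Grem1 gave 1880 and 1332 in GFP and 62.1 and 98.6 in LT7, a log2 difference of -4.24.

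The wider response was read from 8 lists of genes, 101 of which were found on the array and 4 were not. Limma called 1 lower (Cd55) and 1 higher in LT7, and 16 of the 101 were lower and 18 higher at an unadjusted p under 0.05, against 4.38% and 22.9% of all probes. The median log2 difference was 0.14, near that of all probes. Cd55, which protects cells from complement, gave 74.4 and 71.2 in GFP and 5.01 and 4.69 in LT7, and fell, with a log2 difference of -3.81 (SE 0.30, adjusted p = 0.039), at least 3.22-fold. This call was lost without either GFP array (adjusted p = 0.27 without replicate 1 and 0.13 without replicate 2), without either ST7 array (0.068) and without LT7 replicate 1 (0.062).

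The cytokines that induce the acute phase genes were lower in LT7 on the brightest probe for 8 of 11 genes, with a median log2 difference of -0.37. Limma called 0 of the 11, with 5 lower and 1 higher at an unadjusted p under 0.05 (4.38% and 22.9% of all probes). Il6, named because it is the main inducer of the response, gave 725 and 703 in GFP and 308 and 239 in LT7, a log2 difference of -1.30 (SE 0.22, adjusted p = 0.10, limma). Lif, of the same cytokine family, gave 749 and 701 in GFP and 294 and 256 in LT7, also a difference of -1.30 (SE 0.21, adjusted p = 0.10). Il1a gave 34.5 and 22.1 in GFP and 4.39 and 4.75 in LT7 (log2 difference -2.50, SE 0.26, adjusted p = 0.068), or at least 1.22-fold higher in GFP, and its second probe -2.46 (SE 0.20, adjusted p = 0.039), at least 1.20-fold. Il33 gave 94.8 and 54.6 in GFP and 5.44 and 9.14 in LT7 (log2 difference -3.25, SE 0.37, adjusted p = 0.080), or at least 3.18-fold higher in GFP. Neither Il1a nor Il33 was well above background in LT7. In each of these 4 both LT7 arrays lay below both GFP arrays, as for 7 of the 11 genes, against 15.0% of all probes. Il33, Il1a and Lif were named for the size of their change. Cntf was at -0.34 (adjusted p = 0.46).

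The receptors and transcription factors of the response had median log2 differences of 0.008 and 0.05 in LT7. Limma called 0 of 13 in each list, with 2 receptors lower and 0 higher, and 1 factor lower and 2 higher, at an unadjusted p under 0.05 (4.38% and 22.9% of all probes). The largest log2 differences among receptors well above background were -0.75 for Tnfrsf1b, -0.66 for Tlr2 and 0.61 (SE 1.51) for Il1rap, each on the brightest probe. Another Il1rap probe, well above background on all GFP and LT7 arrays, went the other way, at -0.50 (SE 0.19). The other Tnfrsf1b probe stood at -0.32, with overlapping groups. The brightest, Il1rl1, the receptor of interleukin 33, stood at 0.008, but was saturated on both arrays of GFP and of LT7. Its other probes, not saturated, stood at 0.17. Cebpd, the brightest transcription factor of the list and a C/EBP factor induced in the response, gave 42637 and 38155 in GFP and 23477 and 27678 in LT7 (log2 difference -0.56, SE 0.22, adjusted p = 0.18, limma). Cebpb and Stat3, named here for their place in the pathway, stood at -0.30 (adjusted p = 0.44) and -0.18 (adjusted p = 0.86). Rel was at 0.88 and Nr3c1, the glucocorticoid receptor, at 0.59.

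Among the feedback inhibitors limma called 0 of 11, with 1 lower and 3 higher at an unadjusted p under 0.05 (4.38% and 22.9% of all probes). Socs2 was at 1.47, Tnfaip3 at 0.76, Nfkbia at -0.09 and Il1rn, the antagonist of the interleukin 1 receptor, at -2.05. Their adjusted p was 0.10, 0.12, 0.86 and 0.10, respectively, by limma. On this probe Il1rn gave 80.0 and 70.8 in GFP and 26.9 and 10.7 in LT7, with 1 LT7 array well above background. Its other probe, not well above background in GFP and so on 1 LT7 array, went the other way, at 1.46 (SE 1.06). Of the other acute phase reactants, 0 of 16 liver-type and 0 of 16 broadly expressed ones were called, with 2 and 2 lower and 4 and 1 higher at an unadjusted p under 0.05. Of the liver-type genes 10 were not well above background on any GFP or LT7 array, so their values have no order, and of the 4 higher only Itih4 was well above background. The median log2 difference of the broadly expressed genes was -0.11. Steap4, a metalloreductase, gave 310 and 149 in GFP and 25.6 and 24.4 in LT7 (log2 difference -3.01, SE 0.40, adjusted p = 0.10), and Cd14, the co-receptor of bacterial lipopolysaccharide, was at -1.37 (adjusted p = 0.10). Serpina3g, a protease inhibitor, was at 1.07 (adjusted p = 0.10). Itih4, Hpx and Lbp, made in the liver in the response, were at 0.60, 0.39 and 0.16. Ferritin heavy chain (Fth1) was at 0.04, but it was saturated on both arrays of GFP and of LT7, so a change may not show.

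Negative acute phase reactants, which fall in the response, were near background. Limma called 0 of 6, with 0 lower and 3 higher at an unadjusted p under 0.05, all 3 of them among the 5 that were not well above background on any GFP or LT7 array, and Trf, transferrin, was at -0.04. Among the receptors and partners of the 8 proteins, the iron exporter Slc40a1 was at -1.87 and Heph, a ferroxidase related to Cp, at -2.86 (adjusted p = 0.10 each, limma). Neither was well above background in LT7, and GFP was at least 2.36-fold and at least 2.31-fold higher. Scarb1, a receptor of serum amyloid A, was at 0.28.

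**Figure D5:**
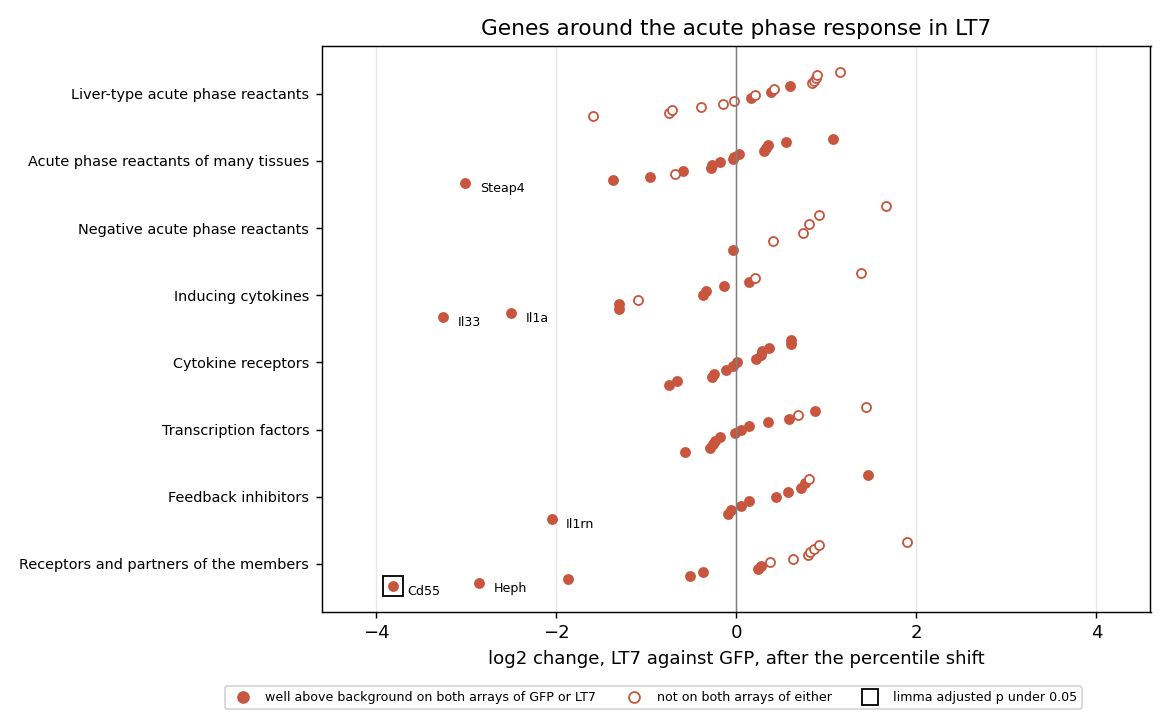
Log2 change in LT7 against GFP of 100 of the 101 listed genes around the acute phase response, each on its brightest probe and after scaling to the 75th percentile. Each point is 1 gene, filled where both arrays of GFP or of LT7 were well above background, and boxed where limma's adjusted p was under 0.05 (Cd55). Most points lie within 1 of 0, with Cd55, Il33, Steap4, Heph, Il1a and Il1rn below -2.

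Markers of other cell types that make these proteins were read on the same arrays. The hepatocyte markers Alb and Ttr were not well above background on any array, while 3 of the 8 (Afp, Tat and Hnf4a) were so on both GFP arrays. Afp gave 74.0 and 83.1 in GFP and 20.1 and 19.5 in LT7, not well above background there (log2 difference -1.89, adjusted p = 0.089, limma, at least 3.46-fold). The summed signal of the 8 was 174 to 175 in GFP and 105.3 to 108.3 in LT7. Ptprc, Emr1, Lyz2, Itgam and Fcgr1, which mark macrophages, were not well above background on any array, while Csf1r, Cd68 and Cd14 were so on all GFP and LT7 arrays. Cd68 gave 113 and 68.4 in GFP and 215 and 188 in LT7 (log2 difference 1.29, adjusted p = 0.10, limma), and Csf1r was at -0.11. The summed signal of the 8 macrophage markers, most of it Cd14 in GFP, was 1047 to 1227 in GFP and 636 to 684 in LT7. The adipocyte list summed to 545 to 591 in GFP and 143 to 169 in LT7, most of it Fabp4 in GFP, a fatty acid carrier, which gave 505 and 455 in GFP and 57.0 and 59.5 in LT7 (log2 difference -2.94, adjusted p = 0.039, limma), while Adipoq and Lep were not well above background on any array. Pparg gave 68.4 and 65.5 in GFP and 67.6 and 81.1 in LT7 (log2 difference 0.24, adjusted p = 0.78). The 8 epithelial markers summed to 117 to 197 in GFP and 138 to 185 in LT7. Whether such cells had a part in the change of the acute phase genes was not tested.

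On the ST7 arrays limma called 44 of the 101 listed genes lower and 46 higher, against 19.8% and 70.7% of all probes, and 72 were well above background on neither ST7 array. With no scaling 3 were called higher. Cebpd, for example, gave 2.84 and 3.22 there, against 38155 or more in GFP.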

How the data were processed

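RNA of 6 cultures was labelled with Cy3 and hybridised to 1-colour Agilent mouse arrays on 1 slide. The deposited scanner files, made by the authors with Agilent Feature Extraction (version 10.5.1.1, per the file headers, which name mm9), give for each spot an intensity after background subtraction. The values of the authors' series matrix are log2 signals after a percentile shift in GeneSpring GX, and served as an alternative. Their scale and direction were checked against the scanner files, and on each array 3 to 11 probes departed from them by over 0.01.

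Outlier spots were dropped here, log2 of the processed intensity was averaged over the spots of each probe, and each array was shifted by its own 75th percentile. Each gene stands on its brightest probe. Groups were compared with limma 3.58.1 (R 4.3.3) on the 6 arrays together. P-values were adjusted by Benjamini-Hochberg across the 61307 probes, with a threshold of 0.05. The 3 groups share 1 estimate of the spread, and p-values measure the spread between passages of the lines. The procedure was tested on simulated data. The number of arrays limits the precision.

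A probe is well above background as the software marks it. Where a group had no such array, the fold is a lower bound. It sets the brighter mean against a floor that is, on each dim array and after scaling, the lowest signal that still counts as well above background or the probe's signal if that is higher. The scanner software gives spots near background a small positive value, so such values have no order. The shares of all probes given above include such spots.

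The members and all lists were chosen with earlier results of these data known. Named were all probes of the 8 genes. Of the lists, the genes called in LT7, the brightest gene and the 3 with the largest change among those detected on both arrays of GFP or LT7 were named, and Il6, Stat3 and Cebpb were added. Serpina1a, Serpina1b, C1ra and C5 were not found by name. Gene names are those of the array. The listed gene called higher in LT7 is counted but not reported here. Alternatives were quantile, spike-in, detected-probe and no scaling, normexp, a filter on dim probes, outlier spots kept, the series matrix, a replicate block, a fit of 2 groups only, the mean of all probes, leaving out each array, and the study's fold rule as read here (log2 ratios of 0.8 or more in both replicates, with their mean over 1). Promoters were aligned with Biopython 1.88. Drawing used Python 3.11.15, pandas 2.3.3 and matplotlib 3.10.9.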

Additional observations from a re-analysis of the deposited data

How the results depend on the processing

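The 2 arrays a group, the dim ST7 arrays and the values near background limit these results. Of the single-gene values recomputed, the low LT7 values of Saa3, Saa1, Saa2, Hp, Lcn2 and Cp kept their sign in all alternatives run, and so did the low ST7 values of Saa3, Hp, Saa1 (brighter probe), C3 (brighter probe) and Cp. The cause of the changes below was not tested.

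Limma called lower in LT7 2 of the 6 genes not picked for their fall. The count was 0 with quantile normalization, spike-in scaling and the replicate block, and 1 with detected-probe scaling, no scaling, normexp or a fit of 2 groups only. Leaving out single arrays gave 0 to 2. The median log2 change of the 8 genes in LT7 was -2.64 with quantile normalization, -5.45 with spike-in scaling, -0.91 with normexp, -3.47 with the dim-probe filter (without Orm1) and -3.53 to -2.94 without single arrays. Of the listed genes in LT7, 1 was called lower. The count was 0 with quantile, detected-probe, spike-in or no scaling, the replicate block or 2 groups only, 5 with normexp, 4 with the dim-probe filter, 12 by the fold rule and 0 to 3 without single arrays. The count called higher, also 1, was 0 with these scalings, the series matrix, outlier spots kept, the dim-probe filter, the block or 2 groups only, 2 with normexp, 6 by the fold rule and 0 to 1 without single arrays.

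The replicate numbers did not pair the samples. The correlations of same-numbered deviations were 0.078 between GFP and LT7, 0.035 between GFP and ST7 and -0.023 between LT7 and ST7. With the number as a block, limma called 0 probes of all in LT7 (108 without it), with 16289 at an unadjusted p under 0.05, and the adjusted p was 0.10 for Saa1 and Lcn2.

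On the ST7 arrays, 5 of 8 genes were lower, and 8 of 8 with no scaling or spike-in scaling. Limma called 3 of the 6 others lower, and 5 with detected-probe or no scaling. The median of the 8 genes was -4.48 with quantile normalization, -4.55 with detected-probe scaling, -7.00 with no scaling, -6.81 with spike-in scaling, -2.28 with normexp, -4.32 with the dim-probe filter, -1.57 with the mean of all probes and -2.84 to -2.37 without single arrays. The median of all probes, 3.72 in ST7, was 0.37 with quantile normalization, 1.77 with detected-probe scaling and -0.68 with no scaling. It was -0.49 with spike-in scaling, 2.23 with normexp and 0.72 with the dim-probe filter. Of the listed genes 46 were called higher, against 17, 3, 1 and 14 with quantile, no and spike-in scaling and the dim-probe filter. Of all probes limma called in ST7, 78.1% were higher, against 66.5% with detected-probe scaling, 57.3% with quantile normalization, 9.31% with no scaling and 1.73% with spike-in scaling. Of the 108 probes called in LT7 25.0% were higher, against 42.9% of 14 with 2 groups only, 40.0% of 5 with quantile normalization and 50.9% of 438 with normexp. Limma called 264 probes with the dim-probe filter, 69 with detected-probe scaling, 59 with no scaling and 3 with spike-in scaling, and 0 to 697 without single arrays. In ST7 it called 55534, against 35276 with quantile normalization, 28195 with no scaling, 13945 with spike-in scaling and 27868 with the dim-probe filter.

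Some log2 changes changed sign. With quantile normalization they were -0.023 for C3 and -0.27 for Orm1 in LT7, -2.92 for Saa2, -2.02 for Lcn2 and -1.42 for the dimmer C3 probe in ST7, and -0.20 for Fth1, 0.11 for Trf and -0.37 for Il1rl1 in LT7. With detected-probe scaling they were -0.012 for C3 and -0.0057 for Il1rl1 in LT7, and -1.74 for Saa2, -1.24 for Lcn2 and -1.34 for the dimmer C3 probe in ST7. With no scaling they were -0.097 for C3, -0.036 for Orm1, -0.063 for Fth1 and -0.091 for Il1rl1 in LT7, and -2.14 for the dimmer Saa1 probe, -4.19 for Saa2, -3.70 for Lcn2, -3.79 for the dimmer C3 probe and -0.59 for Orm1 in ST7. With spike-in scaling they were -1.95 for the dimmer Saa1 probe, -4.00 for Saa2, -3.50 for Lcn2, -3.60 for the dimmer C3 probe and -0.40 for Orm1 in ST7. In LT7 they were then -2.22 for C3, -2.15 for Orm1, -1.83 for Hpx, -1.62 for Itih4, -2.05 for Lbp, -1.15 for Serpina3g, -2.18 for Fth1, -1.61 for Il1rap, -2.21 for Il1rl1, -1.34 for Rel, -1.63 for Nr3c1, -0.75 for Socs2, -1.45 for Tnfaip3 and -1.94 for Scarb1. C3 in LT7 was -0.0038 in the series matrix and -0.0021 with outlier spots kept, and Trf was 0.20 with normexp. With single arrays left out, the change in LT7 ran from -0.11 to 0.11 for C3, -0.41 to 0.54 for Orm1, -0.40 to 1.17 for Hpx, -0.0066 to 0.33 for Lbp, -0.10 to 0.17 for Fth1, -0.44 to 0.36 for Trf, -0.17 to 0.19 for Il1rl1 and -0.60 to 0.24 for Stat3, and in ST7 from -0.22 to 0.65 for Saa2.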

Other observations

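A few genes of the acute phase lists had more signal on the arrays labelled ST7 than on the GFP arrays even before scaling. Cebpa, the C/EBP factor of liver and fat, gave 147 and 134 on the ST7 arrays, well above background, against 2.79 and 6.10 in GFP and 4.71 and 8.18 in LT7, neither of them well above background. Tsc22d3, a target of glucocorticoids that restrains NF-kappaB, gave 2932 and 3136 on the ST7 arrays, against 599 and 559 in GFP and 1082 and 595 in LT7. Il6ra, the receptor subunit that binds interleukin 6, gave 130 and 170 on the ST7 arrays, against 92.6 and 70.1 in GFP. The listed epithelial markers summed to 2014 to 2215 on the ST7 arrays, most of it Krt18 (1881 and 1755). Dsp (178 and 104), Epcam (86.7 and 94.0) and Cldn3 (44.5 and 39.1) were also well above background on both. Krt8 was lower, with 15.3 and 5.82 against 123 and 62.2 in GFP. Krt19 and Cldn4 were not well above background on the ST7 arrays, and Cdh1 on no array at all. The paper, in contrast, found E-cadherin transcript by RT-PCR, and its protein, in ST7 cells. The genes of this paragraph were named after their values were seen.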
